A study of Mus musculus with 6 samples.

Results

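The insulin-like growth factor (IGF) genes described here are 9 of the 18810 genes measured in remodeling heart valve regions of mouse embryos with and without the transcription factor Scleraxis (Scx). They were taken by symbol. One is a ligand (Igf1), 2 are receptors (Igf1r and Insr) and 6 are binding proteins (Igfbp2 to Igfbp7), and each symbol named a single Ensembl identifier. Atrioventricular canal (AVC) regions, which hold the mitral, tricuspid and aortic valves, were dissected at embryonic day 15.5 from hearts of Scx-/- embryos (n = 3), which lack functional Scx in every tissue, and of Scx+/+ littermates (n = 3), all on C57BL/6, with no other allele or treatment named for either group. RNA of the whole dissected tissue was sequenced, without sorting of cells, and the values are RPKM, reads scaled to exon length and library depth. All 9 genes passed the authors' filter of about 50 reads in at least 1 library, although Igfbp6 exceeded 50 reads only in Scx-/- replicate 3 and Scx+/+ replicate 2.

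IGF1 is a secreted growth factor that acts through the receptor tyrosine kinase IGF1R. The insulin receptor, encoded by Insr, is its close relative and can pair with it in hybrid receptors. Most IGF outside the cell is held by high-affinity binding proteins, which carry it, keep it from the receptor or release it when a protease cuts them, and the pathway is known for driving growth of the embryonic heart. Igfbp7 encodes a related secreted protein that binds IGFs with low affinity.

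Libraries held 46429980 to 68570992 reads, recovered from RPKM and exon length. Scx-/- replicate 3 and Scx+/+ replicate 2 stood apart from the other 4 libraries. Across genes their deviations from the genotype means correlated at r = 0.32, the highest of the 9 pairings between genotypes. The 10 most abundant genes took 56.9% of the RPKM of Scx+/+ replicate 2 against 30.7% to 43.9% in the others, with Scx-/- replicate 3, at 33.8%, within that range. Reads over the whole of Scx gave 33.6, 18.6 and 82.9 RPKM (Scx-/- replicates 1 to 3) and 29.5, 58.3 and 26.0 RPKM (Scx+/+ replicates 1 to 3). With no value per exon this does not check the genotypes, so every library is named by its label. All 10 valve mesenchyme markers were in the table, with a summed level of 456 to 598 RPKM in Scx-/- and 434 to 477 RPKM in Scx+/+. Postn was a large part of these sums (216 to 387 RPKM in Scx-/- and 161 to 271 RPKM in Scx+/+), 6 of the 10 had a log2 fold change below 0, the median was -0.02, and none was called. Cardiomyocyte markers (10 of 10 present) summed to 17161 to 30388 RPKM over the 6 libraries, so the samples held myocardium beside valve tissue, and endothelial markers (8 of 8) to 119 to 140 RPKM.

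Scx is a basic helix-loop-helix factor of the family that binds the E-box (CANNTG), and the sequence upstream of 4 of the genes is shown for that reason. Igfbp5 and Igf1r had the lowest log2 fold changes of the 9 genes in Scx-/-, and Igfbp6 and Igfbp7 are the pair that were highest in the same libraries. Each run is read 5′ to 3′ along the gene, from the RefSeq promoter table of GRCm38.p6, ends just before the RefSeq start, and has E-boxes in capitals. The Igfbp5 run stops 19 bases earlier, where the mm9 annotation places an exon.
Igf1r, chr7:67952007-67952256, plus strand: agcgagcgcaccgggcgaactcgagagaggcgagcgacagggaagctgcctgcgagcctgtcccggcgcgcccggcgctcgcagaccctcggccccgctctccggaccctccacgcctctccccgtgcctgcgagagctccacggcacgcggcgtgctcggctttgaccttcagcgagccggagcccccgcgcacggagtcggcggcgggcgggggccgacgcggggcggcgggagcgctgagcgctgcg
Igfbp5, chr1:72874885-72875115, minus strand: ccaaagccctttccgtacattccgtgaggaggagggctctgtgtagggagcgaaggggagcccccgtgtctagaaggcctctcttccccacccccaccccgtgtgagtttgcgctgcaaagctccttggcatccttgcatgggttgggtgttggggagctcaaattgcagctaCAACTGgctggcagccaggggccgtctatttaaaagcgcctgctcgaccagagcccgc
Igfbp6, chr15:102143936-102144185, plus strand: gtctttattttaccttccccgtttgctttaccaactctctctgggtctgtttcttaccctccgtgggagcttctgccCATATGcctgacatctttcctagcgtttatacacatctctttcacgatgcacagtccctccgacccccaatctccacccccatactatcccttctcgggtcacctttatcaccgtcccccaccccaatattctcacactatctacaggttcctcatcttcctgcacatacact
Igfbp7, chr5:77408046-77408295, minus strand: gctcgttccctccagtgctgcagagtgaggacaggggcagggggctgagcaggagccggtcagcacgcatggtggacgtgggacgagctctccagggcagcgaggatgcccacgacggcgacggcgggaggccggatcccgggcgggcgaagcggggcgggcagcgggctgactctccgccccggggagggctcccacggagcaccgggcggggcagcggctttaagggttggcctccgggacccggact
The table held a window for 8 of the 9 genes. An E-box, searched on both strands in 250 bases, was present in 7 of their 9 windows, those of 6 genes, against 66.2% of all 32851 windows. Igf1r and Igfbp7 had none in these windows, Igfbp5 had CAACTG and Igfbp6 CATATG. Of these 4 windows, Igf1r and Igfbp7 also had the highest G and C content, 77.6% and 74.0%, against 58.8% for Igfbp5 and 49.6% for Igfbp6.

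The genes spanned a wide range of levels. Averaged over the 6 libraries, the order per length was Igfbp7 (22.7 RPKM), Igfbp5 (20.0), Igfbp3 (16.2), Igfbp4 (12.0), Insr (11.4), Igf1 (9.29), Igf1r (6.95), Igfbp2 (2.07) and Igfbp6 (0.990), from rank 2930 to rank 13864 of the table. Neighbours in that order were compared within libraries by an exact sign-flip permutation test over 6 libraries, two-sided, adjusted over the 8 pairs. Igf1r exceeded Igfbp2 in 6 of 6 libraries, by 3.52-fold on average (exact permutation p = 0.03125, the smallest the test can give, and adjusted p = 0.167). The other 7 pairs had adjusted p from 0.167 to 0.75, and Igfbp7 was above Igfbp5 in only 3 of 6 libraries.

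**Figure D1:**
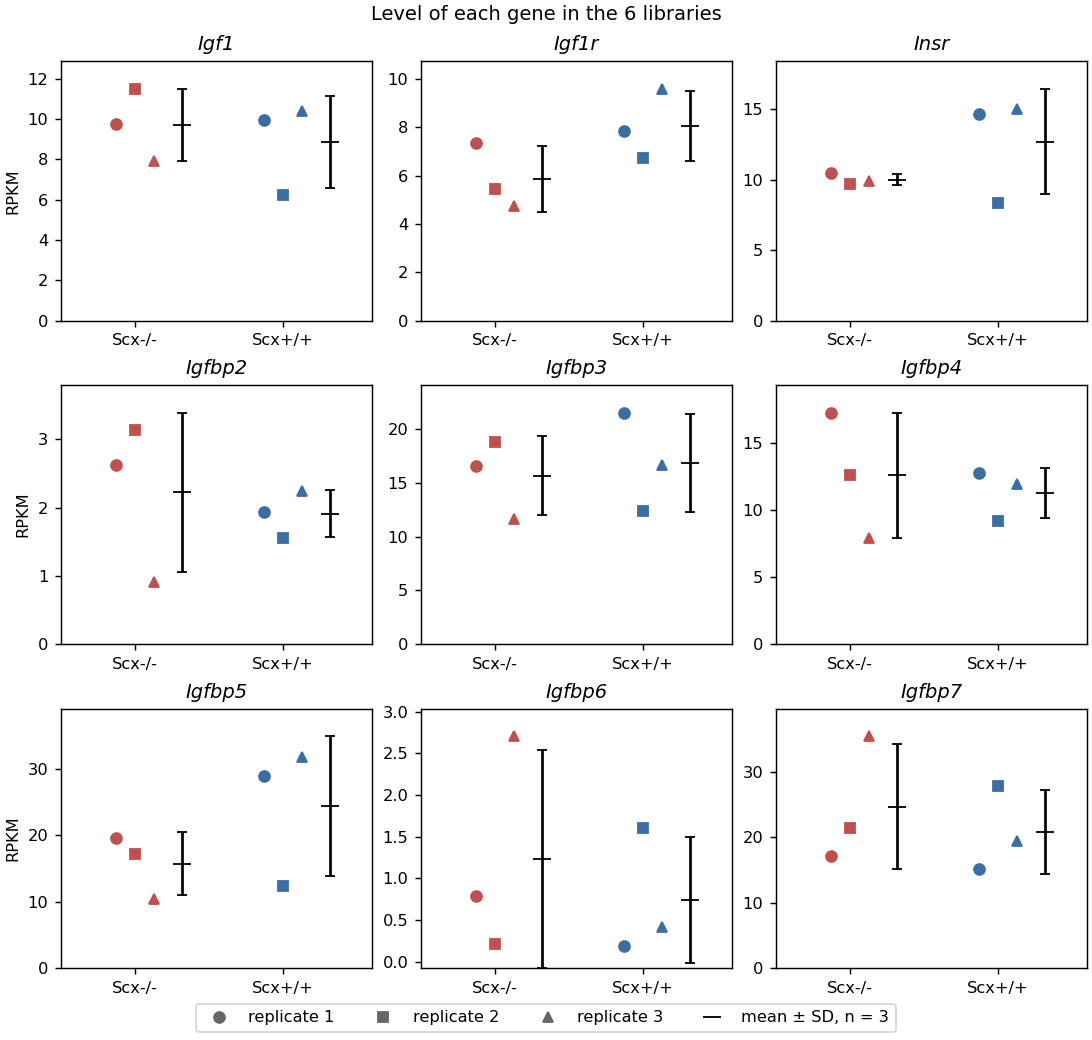
RPKM of each of the 9 genes (vertical axis, linear) in the 3 Scx-/- (red) and 3 Scx+/+ (blue) libraries, with replicate number by marker shape and mean ± SD (n = 3) in black. The genotypes overlap in every panel, and Scx-/- replicate 3 and Scx+/+ replicate 2 are the highest libraries for Igfbp6 and Igfbp7.

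Loss of Scx was compared with the wild type across all genes in limma on log2(RPKM + 0.1), a scale that understates changes of low genes, and a gene was called where its unadjusted p fell below 0.05. None of the 9 genes was called by limma, against 3.89% of all 18810 genes. The study's kind of test, a one-way analysis of variance, called none of the 9 on the RPKM or on its log2. Over all genes it called 848 on the RPKM and 865 on the log2. The limma adjusted p of the 9 ran from 0.967 to 0.996, and no gene of the table was below 0.05 after adjustment (1 was in the analysis of variance on log2 values). The genotypes overlapped for all 9, while they did not for 9.5% of all genes. Their median log2 fold change was 0.06 and that of all genes 0.10, and 5 of the 9 were above 0. In tissue of this kind, fewer cells of a type and less RNA per cell cannot be told apart.

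Igf1 (ENSMUSG00000020053) spans 87321010 to 87399792 of chromosome 10 (mm9, plus strand), with 9921 nt of exon. The Scx-/- libraries 1 to 3 had 9.75, 11.5 and 7.90 RPKM and the Scx+/+ libraries 9.97, 6.22 and 10.4 RPKM, from 2865 to 7628 reads. The lowest value of each genotype was in the library that stood apart, and the other 4 libraries lay between 9.75 and 11.5 RPKM. Igf1 differed by a log2 fold change of 0.15 (SE 0.25, 95% interval -0.42 to 0.72, limma adjusted p = 0.972). Over the 6 libraries, the 3 genes most like Igf1 among 13826 others averaging 1 RPKM or more were Cspp1, D4Wsu53e and Rcbtb1, with Pearson correlations of log2 RPKM of 0.997, 0.995 and 0.994. These are the top of a long list over only 6 libraries that share the split described, and are given without a test.

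Igf1r (ENSMUSG00000005533, chromosome 7 of mm9 from 75097713 to 75371484, plus strand), the IGF1 receptor, was 7.37, 5.45 and 4.75 RPKM in the Scx-/- libraries and 7.83, 6.72 and 9.60 RPKM in the Scx+/+ libraries, from 1270 to 2945 reads. The highest Scx-/- value exceeded only the lowest Scx+/+ value, so the groups overlapped by 1 library. The Scx-/- mean was 0.728 times that of Scx+/+, with a log2 fold change of -0.46 (SE 0.24, 95% interval -0.998 to 0.08, unadjusted p = 0.0839 and adjusted p = 0.967 from limma). It was the gene of the 9 nearest to a call. After centring each library on the median of genes averaging 1 RPKM or more, the value was -0.57 (unadjusted p = 0.0321 from limma). By limma it was -0.57 with quantile normalization (unadjusted p = 0.0332) and -0.50 with GC and length trends removed (0.0271). Without Scx-/- replicate 1 it was -0.64 (0.0322). Igf1r was thus called in 4 of 17 alternatives, and its adjusted p was at least 0.596 in each of the 17.

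Insr (ENSMUSG00000005534, chromosome 8 of mm9 from 3150922 to 3279617, minus strand), the insulin receptor, was 10.5, 9.68 and 9.91 RPKM in the Scx-/- libraries and 14.7, 8.39 and 15.0 RPKM in the Scx+/+ libraries, from 3765 to 9974 reads. The Scx-/- libraries were close together, and Scx+/+ replicate 2 lay below all of them while the other Scx+/+ libraries lay above. Its log2 fold change was -0.29 (SE 0.24, 95% interval -0.85 to 0.26, limma adjusted p = 0.967). Without Scx+/+ replicate 2 it was -0.57 (unadjusted p = 0.00667 from limma), a call that rests on leaving out that library. The ratio of Igf1r to Insr, which does not depend on the scaling of the libraries, was 0.704, 0.563 and 0.479 in Scx-/- and 0.532, 0.802 and 0.638 in Scx+/+. Insr thus exceeded Igf1r per length in all 6 libraries, and the log2 ratio differed by -0.17 between genotypes (exact permutation test, two-sided, p = 0.5, where the smallest possible is 0.1).

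**Figure D2:**
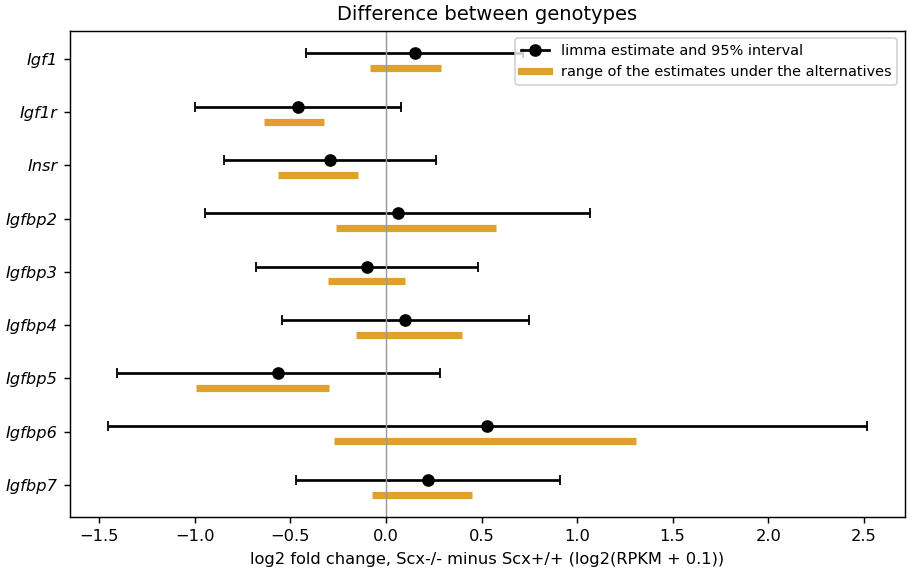
Log2 fold change of each gene, Scx-/- minus Scx+/+, on the log2(RPKM + 0.1) scale, as the limma estimate with its 95% interval (black) and the range of the estimates over the alternatives (orange). Every interval includes 0, and the ranges of Igf1r, Insr and Igfbp5 lie wholly below 0.

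Igfbp5 (ENSMUSG00000026185, chromosome 1 of mm9 from 72904506 to 72921458, minus strand) encodes a matrix-associated binding protein and was the most variable of the abundant binding proteins. It was 19.5, 17.2 and 10.5 RPKM in the Scx-/- libraries and 28.9, 12.4 and 31.8 RPKM in the Scx+/+ libraries, from 3452 to 13077 reads. Scx+/+ replicates 1 and 3 exceeded every Scx-/- library, and Scx+/+ replicate 2 lay below all but 1. The Scx-/- mean was 0.645 times that of Scx+/+, with a log2 fold change of -0.56 (SE 0.37, 95% interval -1.41 to 0.28, limma adjusted p = 0.967). Without Scx+/+ replicate 2 it was -0.99 (unadjusted p = 0.0118 from limma), and without both libraries that stood apart -0.73 (unadjusted p = 0.00553 from limma), so that its call depended on Scx+/+ replicate 2. Igfbp2 (ENSMUSG00000039323, 72871077 to 72899048, plus strand) is its neighbour at a gap of 5457 bases, transcribed toward it. Igfbp2 was 2.62, 3.14 and 0.915 RPKM in Scx-/- and 1.94, 1.55 and 2.24 RPKM in Scx+/+, from 101 to 389 reads. The Scx-/- libraries held both its highest and its lowest value, around a log2 fold change of 0.06 (95% interval -0.95 to 1.07, limma adjusted p = 0.996) that was -0.048 after median centring.

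Igfbp3 (ENSMUSG00000020427, chromosome 11 of mm9 from 7106089 to 7113926, minus strand), which encodes the main IGF carrier of the circulation, was 16.5, 18.7 and 11.6 RPKM in the Scx-/- libraries and 21.5, 12.4 and 16.7 RPKM in the Scx+/+ libraries, from 1801 to 4037 reads. Its log2 fold change was -0.10 (95% interval -0.68 to 0.48, limma adjusted p = 0.985), and the genotypes overlapped widely. Igfbp4 (ENSMUSG00000017493, chromosome 11 from 98902558 to 98913969, plus strand), a binding protein that restrains IGF until a protease cuts it, was 17.3, 12.6 and 7.97 RPKM in Scx-/- and 12.8, 9.20 and 12.0 RPKM in Scx+/+. Both the highest and the lowest library were Scx-/-, and the log2 fold change was 0.10 (95% interval -0.54 to 0.75, limma adjusted p = 0.987) and -0.0084 after median centring.

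Igfbp6 (ENSMUSG00000023046, chromosome 15 of mm9 from 101974793 to 101979942, plus strand), which encodes a binding protein that prefers IGF2, was the least abundant gene and the most variable. It lies on the chromosome of Scx, 25684894 bases from it. Its level was 0.791, 0.215 and 2.71 RPKM in the Scx-/- libraries and 0.195, 1.61 and 0.420 RPKM in the Scx+/+ libraries, from 46, 16 and 180 reads and 13, 83 and 32 reads. The 2 high libraries were Scx-/- replicate 3 and Scx+/+ replicate 2, and the highest was 13.9 times the lowest. On the log2(RPKM + 0.1) scale its range of 3.25 was larger than that of 96.3% of genes averaging 1 RPKM or more. Igfbp6 itself averaged 0.990 RPKM, below that cut, so its range was set beside that of genes with a higher level. Between genotypes, the log2 fold change of 0.53 (SE 0.88, 95% interval -1.45 to 2.52, limma adjusted p = 0.972) was well within that spread, and it was -0.27 without Scx-/- replicate 3. Igfbp7 (ENSMUSG00000036256, chromosome 5 from 77778265 to 77837070, minus strand) was 17.1, 21.5 and 35.4 RPKM in the Scx-/- libraries and 15.2, 27.7 and 19.4 RPKM in the Scx+/+ libraries, from 1085 to 2563 reads. It was highest in the same libraries as Igfbp6, with a log2 fold change of 0.22 (95% interval -0.47 to 0.91, limma adjusted p = 0.967) that was -0.07 without Scx-/- replicate 3. Its exons share 85 bases (7.01% of their length) with Polr2b on the other strand, and the strand setting of the counting is not given in the sources used here.

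Several of these genes had their extreme values in the same libraries. Scx-/- replicate 3 and Scx+/+ replicate 2 were the 2 lowest libraries for Igf1, Igfbp2, Igfbp3, Igfbp4 and Igfbp5 (5 of 9 genes) and the 2 highest for Igfbp6 and Igfbp7 (2 of 9), but neither for Igf1r and Insr, a pattern noticed after the values were seen. Among the 13827 genes averaging 1 RPKM or more, these libraries were the 2 lowest for 19.5% and the 2 highest for 13%. Igfbp6, which averaged 0.990 RPKM, is not among those genes. Whole-gene Scx was highest in the same libraries, as given above. The summed cardiomyocyte markers were also highest there, at 28047 and 30388 RPKM against 17161 to 23190 RPKM in the other 4 libraries, and 6 of the 10 markers one by one had their 2 highest values there. Others did not: Ttn had its lowest value in Scx+/+ replicate 2 (92.4 RPKM), and Nppa was lower in Scx-/- replicate 3 (453 RPKM) than in the other Scx-/- libraries (982 and 724 RPKM). Of the 10 valve mesenchyme markers, 5 had their 2 lowest values in these libraries and 0 their 2 highest. For the 7 macrophage markers these numbers were 3 and 0, and for the 8 endothelial markers 2 and 1. They were 2 and 0 for the 6 erythroid markers, and 1 and 0 for both the 7 epicardial and the 4 smooth muscle markers. Among the erythroid markers, Hbb-y was 1.16 RPKM in Scx-/- replicate 3 and 1.99 RPKM in Scx+/+ replicate 2, against 49.6 to 125 RPKM in the other 4 libraries. Hba-a1 and Hbb-b1 instead had their lowest values in Scx+/+ replicate 1 (2464 and 1388 RPKM). The part of these cells in the pattern was not tested.

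**Figure D3:**
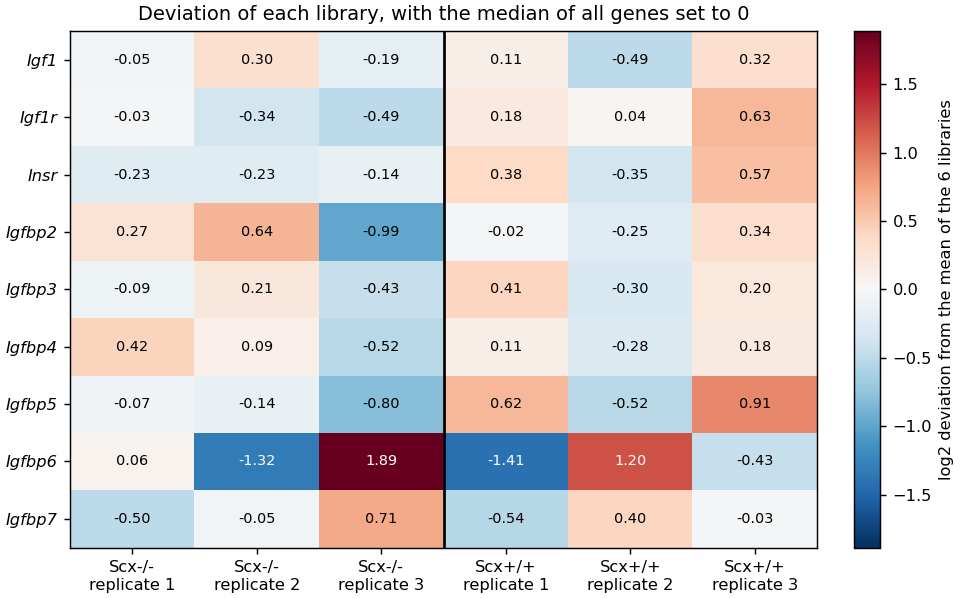
Log2 deviation of each library (columns) from the mean of the 6 libraries for each gene (rows), after median centring, with the value printed in each cell. The largest deviations are those of Igfbp6, from -1.41 to 1.89, which stood at 1.89 in Scx-/- replicate 3 and 1.20 in Scx+/+ replicate 2, where Igfbp5 was at -0.80 and -0.52.

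Summed over the 6 binding proteins, the level was 72.1 RPKM ± 2.64 in Scx-/- and 76.0 RPKM ± 9.65 in Scx+/+ (each SD, n = 3; exact permutation test, two-sided, p = 0.5). The sum was 6.39 to 10.4 times the level of Igf1 in the same library. Igfbp7, Igfbp5, Igfbp3 and Igfbp4 made up nearly all of it, and the make-up shifted between libraries. Igfbp7 took 51.2% in Scx-/- replicate 3 and 42.8% in Scx+/+ replicate 2, against 18.9% to 29.3% elsewhere. The share of Igfbp5 was 21.7% ± 5.83 (SD, n = 3) in Scx-/- and 31.2% ± 10.5 (SD, n = 3) in Scx+/+, a difference of -9.52 percentage points (exact permutation test, two-sided, p = 0.3 and adjusted p = 0.72 over the 6 shares). The other 5 shares differed by -0.405 to 6.16 percentage points, with adjusted p from 0.72 to 0.9.

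**Figure D4:**
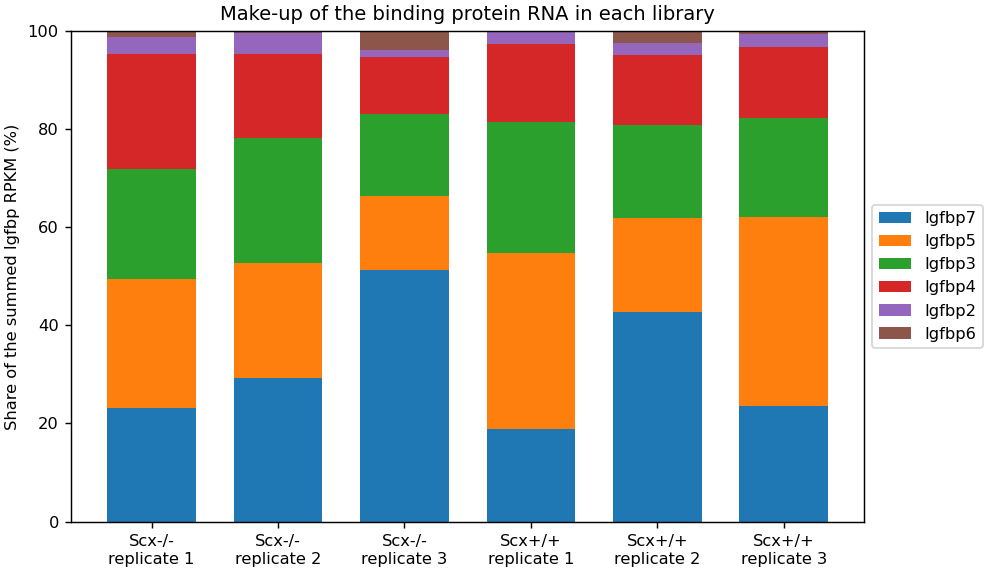
Share of each binding protein in the summed RPKM of Igfbp2 to Igfbp7 (vertical axis, percent) in each library (bars). Igfbp7, at the base of the bars, takes 51.2% in Scx-/- replicate 3 and 42.8% in Scx+/+ replicate 2, and Igfbp5 takes its highest share, 38.5%, in Scx+/+ replicate 3.

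The rest of the pathway was taken from a list of 62 genes, of which 57 were in the table. By limma 1 of these was called higher and 0 lower in Scx-/-, against 2.82% and 1.06% of all genes, and 0 after adjustment. Their median log2 fold change was 0.02, beside 0.10 for all genes. The called gene was Htra1, a secreted serine protease that can cut IGF-binding proteins. It was 10.2, 15.1 and 13.1 RPKM in Scx-/- and 7.43, 9.37 and 9.58 RPKM in Scx+/+, with no overlap and a log2 fold change of 0.53 (SE 0.21, unadjusted p = 0.0332 and adjusted p = 0.967 from limma). It was not called after median centring, with quantile normalization, with GC and length trends removed, without the intensity trend in limma, or by the study's kind of test, nor without Scx-/- replicate 2, Scx-/- replicate 3 or Scx+/+ replicate 1. Of the other 5 proteases and their inhibitors in the table, none was called.

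Igf2, the other IGF ligand, was far more abundant than Igf1, at 125, 98.0 and 74.2 RPKM in Scx-/- and 123, 72.7 and 125 RPKM in Scx+/+. Its log2 fold change was -0.10 (SE 0.27, limma adjusted p = 0.987), and its lowest libraries were again Scx-/- replicate 3 and Scx+/+ replicate 2. Igf2r, which encodes the receptor that clears IGF2, was 243, 223 and 112 RPKM against 279, 150 and 260 RPKM, with a log2 fold change of -0.28 (SE 0.35, limma adjusted p = 0.967). No adaptor (9 in the table), gene of the PI3K, AKT and mTOR branch (24), MAPK gene (7), phosphatase or brake (4) or IGF2 mRNA-binding gene (3) was called by limma with all 6 libraries. Irs1, an adaptor, was called lower without Scx+/+ replicate 2 (log2 fold change -0.49, unadjusted p = 0.0359 from limma), Ins2, a ligand, lower without Scx+/+ replicate 3 (-1.71, 0.00671), and Socs3, a brake, higher without both libraries that stood apart (1.47, 0.0155). Ins2 (0.0949 to 0.824 RPKM) and Socs3 (0.0949 to 0.604 RPKM) were near the floor. The value put in for 10 reads or fewer entered both fits, in Scx-/- replicates 1 and 3 for Ins2 and in Scx+/+ replicate 3 for Socs3. All 7 MAPK genes had a log2 fold change above 0, between 0.02 and 0.18, beside a median of 0.10 for all genes. Without overlap between genotypes, a state shared by 9.5% of all genes, were 4 of the 57: Htra1 and, named here after their values were seen, Rps6kb1 (the S6 kinase of the mTOR branch) and Pik3r3 (a regulatory subunit of PI3K), with log2 fold changes of 0.33 and 0.16, and Pik3r2 (another such subunit), with -0.34. Rps6kb1 was 12.6, 11.8 and 11.4 RPKM in Scx-/- and 10.5, 9.57 and 8.50 RPKM in Scx+/+, and limma gave an unadjusted p of 0.0932. It was the 1 pathway gene that the study's kind of test called, on the RPKM and on its log2. Over all 18810 genes that test called 848 on the RPKM and 865 on the log2. Limma called Rps6kb1 without Scx+/+ replicate 1 (0.40, unadjusted p = 0.049), a fit that called 1003 of all 18810 genes. Ins1, Igfals, Igfbp1, Pappa2 and Irs4 were not analysed here.

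**Figure D5:**
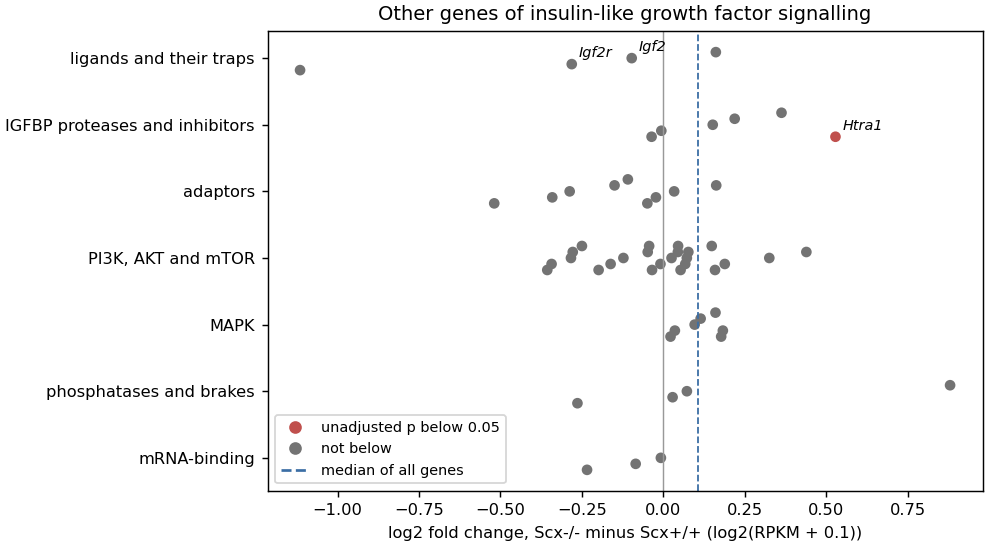
Log2 fold change, Scx-/- minus Scx+/+, of the 57 other pathway genes in the table (points) by group, with the median of all genes, 0.10, as a dashed line. Htra1 (red) is the 1 gene that limma called, and the other points lie on both sides of 0.

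Markers of other cell types are given for the tissue as a whole. The summed level of the 7 epicardial markers, a cell layer known to secrete IGF2, was 30.7 to 35.7 RPKM in Scx-/- and 23.7 to 25.3 RPKM in Scx+/+, and 3 of the 7 (Upk1b, Tcf21 and Aldh1a2) were called higher, against 2.82% of all genes. All 7 had a log2 fold change above 0, as did 11996 of all 18810 genes. After median centring 0 of the 7 were called, as with GC and length trends removed, without Scx-/- replicate 2 and without Scx+/+ replicate 1. The number was 1 with quantile normalization and without Scx-/- replicate 1, Scx-/- replicate 3 or Scx+/+ replicate 3. It was 2 with the replicate number as a block or without both libraries that stood apart, and 3 in the other alternatives. None of the 4 smooth muscle or 6 erythroid markers was called, and of the 7 macrophage markers 1 was, Cd68, at 0.639 to 1.54 RPKM in Scx-/- and 0.0949 (the value put in for 10 reads or fewer) to 0.476 RPKM in Scx+/+. The part of these cells in the values of the IGF genes was not tested.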

How the data were processed

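The authors aligned reads to the mouse genome mm9 with TopHat 1.4.1, counted reads in Ensembl exons with easyRNASeq and deposited RPKM per gene. They kept genes that reached about 50 reads in 1 library or more, and replaced values of 10 reads or fewer by a common value (0.0949 RPKM in the table). Identifiers were matched to the GENCODE annotation of mm9 (18695 of 18810). The read number of each library was solved for as the smallest that made RPKM times exon length whole (within 0.1 read for 98.5% to 98.6% of values under 1000 reads), and no count test was run. Igfbp4 gave no whole reads, so none are printed for it.

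The genotypes were compared in R 4.3.3. The model was limma 3.58.1 with its intensity trend, fitted to log2(RPKM + 0.1) without covariates, and p was adjusted over all 18810 genes by Benjamini-Hochberg. A call is an unadjusted p below 0.05, as in the study. The limma step was tested on simulated data with noise drawn independently for each library, so without the split described. Single values were compared by exact permutation over the libraries of 3 against 3 embryos, and all other values and plots were made in Python 3.11.15 (matplotlib 3.10.9, scipy 1.17.1, pandas 2.3.3, numpy 2.4.6). Named are the 9 genes, Scx, pathway genes called (up to 10), Igf2, Igf2r, the 3 genes most like Igf1 and the cell markers, of which 1 list is not reported here. The members and lists were chosen with earlier results of these data known. Hras was matched through its older symbol Hras1.

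The alternatives were pseudocounts of 0.01 and 1, only the 13827 genes averaging 1 RPKM or more, and no intensity trend. One-way ANOVA (the study's kind of test) was run on RPKM and on its log2. Each library was also centred on the median of those 13827 genes, or the libraries were quantile normalized. Further fits took the replicate number as a block, left out each library, and left out both libraries that stood apart. Removing trends with GC content and exon length by splines (5 degrees of freedom each, 18695 genes) was added after seeing the data.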

Additional observations from a re-analysis of the deposited data

How the results depend on the processing

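Igf1r, Insr and Igfbp5 stayed below 0 in all 17 alternatives, at log2 fold changes from -0.64 to -0.32, from -0.57 to -0.15 and from -0.99 to -0.30. The number of the 9 genes called was 1 (Igf1r) under quantile normalization, median centring or removal of GC and length trends, 2 (Insr and Igfbp5) without Scx-/- replicate 3 and Scx+/+ replicate 2 together, and 0 to 2 with 1 library left out. Pathway genes called were 0 without the intensity trend, with quantile normalization, with the median set to 0 and with the length and GC trend removed, and 0 to 2 with 1 library left out. Over all genes, 1587 were called without both libraries that stood apart, and 539 to 1549 with 1 left out, the most without Scx+/+ replicate 2. The split of the 731 calls into 531 higher and 200 lower turned to 281 and 365 with the median set to 0, 352 and 353 with quantile normalization, and 299 and 362 with the length and GC trend removed. The cause was not tested.

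The sign of the log2 fold change turned for Igfbp2 with the median set to 0 (-0.048) and with the length and GC trend removed (-0.012), and for Igfbp4 with the median set to 0 (-0.0084) and with quantile normalization (-0.0081). With 1 library left out the ranges were -0.084 to 0.29 for Igf1, -0.26 to 0.58 for Igfbp2, -0.30 to 0.10 for Igfbp3, -0.16 to 0.40 for Igfbp4, -0.27 to 1.31 for Igfbp6 and -0.073 to 0.45 for Igfbp7. The log2 ratio of Igf1r to Insr, Scx-/- minus Scx+/+, was -0.32 to -0.02 with 1 library left out and 0.11 without both. Shares of the binding protein sum were also compared, as Scx-/- minus Scx+/+, with 1 library left out. The difference ranged from -0.0702 to 1.41 percentage points for Igfbp2, -2.38 to 1.98 for Igfbp3 (0.535 without both) and -0.482 to 5.46 for Igfbp4. It was -15.6 to -5.85 for Igfbp5, -0.394 to 1.42 for Igfbp6 and -2.19 to 13.3 for Igfbp7.

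Same-numbered libraries did not deviate together (correlations of 0.09, -0.22 and -0.19 over the 13827 genes averaging 1 RPKM or more). These deviations also carry the split described, in which the libraries that stood apart have unlike numbers. The correlations therefore cannot show whether the numbers pair the samples. The fit with the replicate number as a block called 0 of the 9 genes, 1 pathway gene and 573 genes in all. Igfbp6 has no value among genes averaging 1 RPKM or more, and its 13 to 180 reads limit its precision.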
